A study of Homo sapiens with 11 samples.

Results

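Broad initiation zones of U2OS cells are the regions of the U2OS replication origin list that span 10000 bp or more on chromosomes 1 to 22. They numbered 4816 of the 126050 origins on these chromosomes, or 3.82%, and the whole list held 127325 origins. U2OS is a human osteosarcoma cell line, and the labels give the cells of the origin sample as WT. Origins were mapped by sequencing short nascent DNA strands, the first products of replication. These strands keep an RNA primer and so resist lambda exonuclease. The broad zones were compared with 7 other lists of enriched regions, each from 1 sample: from U2OS cells, ChIP-Seq of CUL4A, CDT2, H3K4me3 and H3K9me3, from HCT116 WT cells, ChIP-Seq of SKP2, and from a HCT116 RepID KO clone, ChIP-Seq of SKP2 and nascent strands. HCT116 is a human colon carcinoma line, and in the KO clone the PHIP gene, which encodes RepID, had been disrupted by CRISPR-Cas9. None of the labels names a drug treatment or synchronization, and whether the U2OS cells of the CDT2 sample carried additional FLAG-tagged RepID could not be settled from the descriptions. No group had a replicate, so every interval given here is a 95% interval for the counting of regions, Wilson for shares and Newcombe for differences of shares. These intervals treat neighbouring regions as independent and leave out the variation between cultures.

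Replication starts at many sites in human chromosomes, and an initiation zone is a stretch in which initiation sites lie so close together that a population of cells shows 1 continuous enrichment. The name is used here for wide regions of the list, and how many sites fired within a zone was not measured. CUL4A holds together the subunits of CRL4, a ubiquitin ligase that removes the licensing factor CDT1 from chromatin so that DNA is copied a single time in each cycle. CRL4 selects its targets through receptors called DCAFs, among them CDT2, which acts together with PCNA at replicating DNA, and RepID, which binds a group of origins. SKP2 is the receptor of another ligase, SCF, which also acts on CDT1. H3K4me3 marks active promoters and is frequent in early-replicating chromatin, whereas H3K9me3 marks heterochromatin, much of which replicates late.

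The broad zones were chosen by their width in the origin list, so width and origin score, which come from the same sample, are given as a description. The median width was 13200 bp, with quartiles of 11200 and 17200 bp, and the widest zone reached 217400 bp. All other origins on the same chromosomes had a median width of 2200 bp. Among the broad zones, 4034 (83.8%) were under 20 kb, 708 were 20 to 50 kb wide, and 74 were 50 kb or wider. The zones held 77916800 bp, which was 18.8% of all bases in origins and 2.71% of the span of the chromosomes. Widths around the minimum ran on without a break, since 256 origins were 9800 bp wide and 244 were exactly 10000 bp wide. The highest-scoring zones on the minimum were chr20:44649401-44659400 with a score of 1212 and chr16:89792601-89802600 with 1091. The highest-scoring origins of 9800 bp, chr19:41855001-41864800 and chr19:38990001-38999800, had scores of 1226 and 1073. The score per kb, the authors' whole-number score divided by width, had a median of 46.7 in broad zones and 41.7 in the other origins. It was 45.1 in zones of 10 to 20 kb, 55.4 in zones of 20 to 50 kb and 75.2 in the widest class. The widest zones were therefore also the densest in score, although origins under 1 kb had a median of 71.7.

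**Figure D1:**
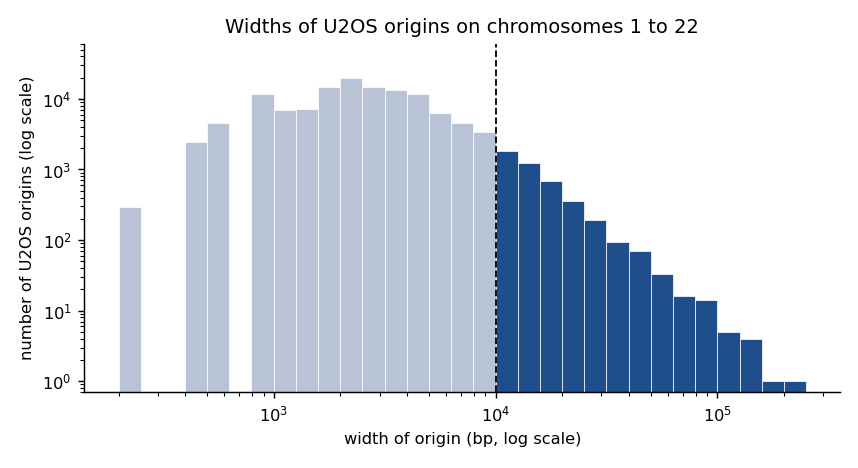
Number of U2OS origins on chromosomes 1 to 22 (vertical axis, log scale) by width in bp (horizontal axis, log scale). Of the 4816 zones, the 244 of exactly 10000 bp are counted in the last light bar, left of the dashed line. Dark bars to the right of the line are the wider zones. The step at the line therefore partly reflects this binning, and the counts fall to a single zone of 217400 bp.

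Broad zones lay close to one another. The median distance from a zone to the nearest other zone was 19600 bp, 1788 zones (37.1%) had another within 10 kb, and 3862 (80.2%) had another within 100 kb. Only 118 zones (2.45%) were more than 1 Mb from the next. When zones up to 100 kb apart were joined, they formed 1723 runs, of which 954 held a single zone and 77 held 10 or more. Those 77 runs contained 1412 zones. The run with the most members, chr8:141494201-145240600, held 92 broad zones that filled 70.6% of its length. On chromosome 7, chr7:61001-3423200 held 71 zones that filled 83.2% of the run, and chr7:4639601-7098800 held 43 zones that filled 74.7%. On chromosome 22, chr22:26557201-28213600 held 53 zones that filled 71.9%. Such runs are megabase stretches in which origins of 10 kb or more follow each other with short gaps.

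The share of origins that were broad differed widely between chromosomes. It was lowest on chromosome 4, with 25 zones or 0.501% of its origins, and highest on chromosome 22, with 278 zones or 9.46%. Chromosomes 17 and 8 followed with 8.22% (481 zones) and 7.33% (435 zones). Zones of 50 kb or more were gathered on few chromosomes, since 35 of the 74 lay on chromosome 7 and 15 on chromosome 8. In the HCT116 RepID KO clone, 4614 of 83872 origins were 10 kb or wider, with the lowest share on chromosomes 13 and 18 (2.35% on each) and the highest on chromosome 22 (9.97%). Chromosomes 22 and 17 thus led in both cell lines, whereas chromosome 4 had 4.86% in the clone. On chromosome 8 the U2OS share was the larger, with 7.33% against 4.35% in the clone. These lists differ in cell line and genotype together, and the effects of the line and of RepID cannot be told apart.

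**Figure D2:**
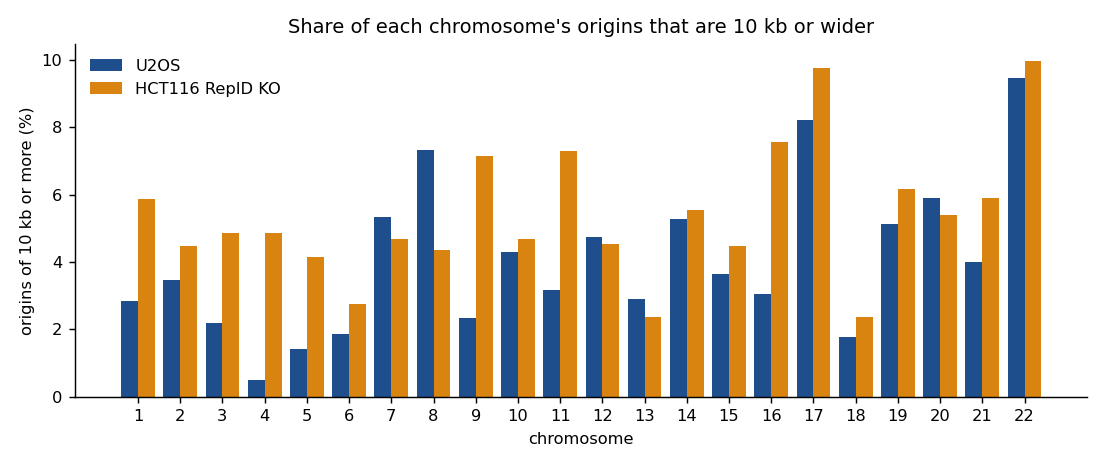
Share of each chromosome's origins that are 10 kb or wider (vertical axis, percent) for chromosomes 1 to 22 (horizontal axis), with U2OS in blue and the HCT116 RepID KO clone in orange, 1 sample each. U2OS shares run from 0.501% on chromosome 4 to 9.46% on chromosome 22, and the clone's from 2.35 to 9.97%.

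In 5 Mb bins along the chromosomes the same concentration was visible. Of 588 bins, 246 held no broad zone and the median bin held 1, while the 10 bins with the most broad-zone bases held 755 zones and 22.6% of these bases. The first 5 Mb of chromosome 7 had 89 broad zones among its 136 origins, and they covered 69.7% of the bin. From 140 to 145 Mb of chromosome 8, 117 of 214 origins were broad and covered 60.2%. In both bins the KO clone had many broad origins as well, 60 on chromosome 7 and 67 on chromosome 8, which covered 23.6% and 37.0% of the bins. Other bins rich in U2OS zones held few broad origins of the clone. From 25 to 30 Mb of chromosome 22 there were 90 broad zones in U2OS cells and 10 in the clone, from 5 to 10 Mb of chromosome 7 there were 43 and 6, and from 130 to 135 Mb of chromosome 8 there were 70 and 3. The median score per kb of all origins was 71.6 in the first bin of chromosome 7 and 62.5 in the bin at 140 Mb of chromosome 8, against 41.3 in the median bin. The score was thus higher in these bins, and its part in the width of the zones was not tested.

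**Figure D3:**
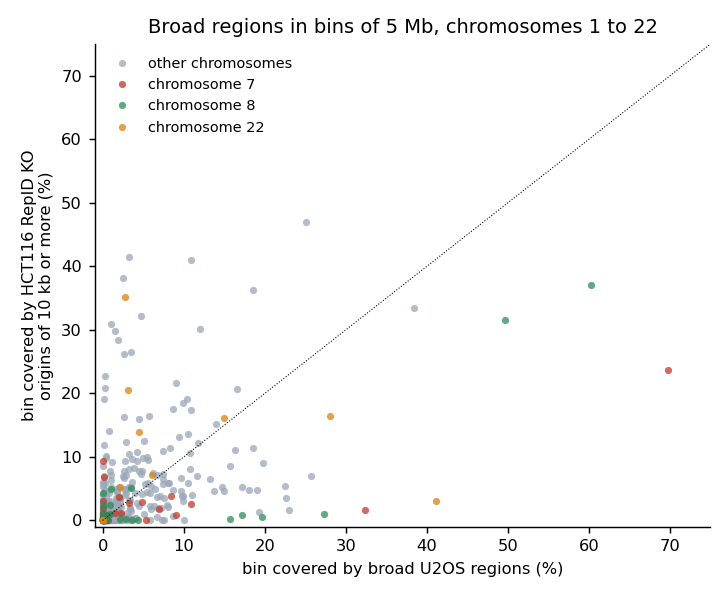
Each point is a 5 Mb bin, with the percent of the bin covered by broad U2OS zones (horizontal axis) against the percent covered by HCT116 RepID KO origins of 10 kb or more (vertical axis). The dotted line marks equal coverage, and the rightmost point, the first 5 Mb of chromosome 7, lies at 69.7% and 23.6%.

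CUL4A met 3666 of the 4816 broad zones by at least 1 bp, a share of 76.1% (74.9 to 77.3%), where 29.8% of all U2OS origins met it. A wide region meets more peaks by its length alone, so the share of bases and a fixed window were also measured. CUL4A regions covered 41.7% of the bases of broad zones and 21.0% of the bases of other origins, a ratio of 1.99, and coverage was higher in broad zones on 22 of 22 chromosomes. Within 1 kb around the centre, 47.5% of broad zones and 23.7% of other origins met CUL4A, a difference of 23.8 percentage points (22.4 to 25.2). With chromosomes 7 and 8 left out, coverage was 41.3% in broad zones and 21.5% in other origins. Coverage was higher in each wider class, from 18.5% in origins of 2 to 5 kb and 27.3% in those of 5 to 10 kb to 36.7%, 48.7% and 64.2% in the 3 classes of broad zones. The difference between classes was present below the 10 kb minimum as well.

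The CUL4A regions in broad zones were themselves wide. Of the CUL4A list, 6214 regions (11.2%) had their centre in a broad zone, with a median width of 4000 bp, against 2000 bp in other origins and 1600 bp outside origins. Their median score was 146, against 71 and 46. Their density was nevertheless 79.8 per Mb in broad zones and 81.9 per Mb in other origins, so the higher coverage went with wider CUL4A regions and not with more of them per Mb. A zone had a median of 35.9% of its bases in CUL4A regions, with quartiles of 4.0 and 65.5%. At the extremes, 74 zones were covered completely, the widest of them chr1:2583001-2631200, and 1962 zones (40.7%) held 2 or more CUL4A regions. CUL4A regions and both origin lists were called with SICER in windows of 200 bp joined over gaps of up to 600 bp. Whether this shared method widened the regions together was not tested.

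CDT2 met 1698 broad zones, or 35.3% (33.9 to 36.6%), where 12.3% of all origins met it. This larger share did not carry over to measures that account for length. CDT2 peaks covered 2.42% of the bases of broad zones and 2.76% of those of other origins, with broad zones higher on 4 of 22 chromosomes, and their density was 32.0 against 43.9 per Mb. In the 1 kb window at the centre CDT2 was found in 5.71% of broad zones and 7.52% of other origins, a difference of -1.81 percentage points (-2.45 to -1.10). The window is wider than origins under 1 kb, and in origins of 5 to 10 kb CDT2 was found in 5.35%. Coverage by CDT2 was 8.90% in origins under 1 kb and lay between 2.19 and 2.57% in every class of 2 kb or more. CDT2 is a receptor on the CUL4A scaffold. CDT2 peaks shared bases with CUL4A more often within broad zones than in all other origins pooled or outside origins. CUL4A regions were also widest in broad zones. There, 81.5% of CDT2 peaks (80.0 to 83.0%) did so. That share was 67.5% in other origins (66.8 to 68.3%) and 40.7% outside origins. Origins of 5 to 10 kb were not counted apart for it, so the higher share cannot be called particular to broad zones. In the opposite direction, 26.4% of the CUL4A regions in broad zones shared bases with CDT2, against 28.7% in other origins.

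**Figure D4:**
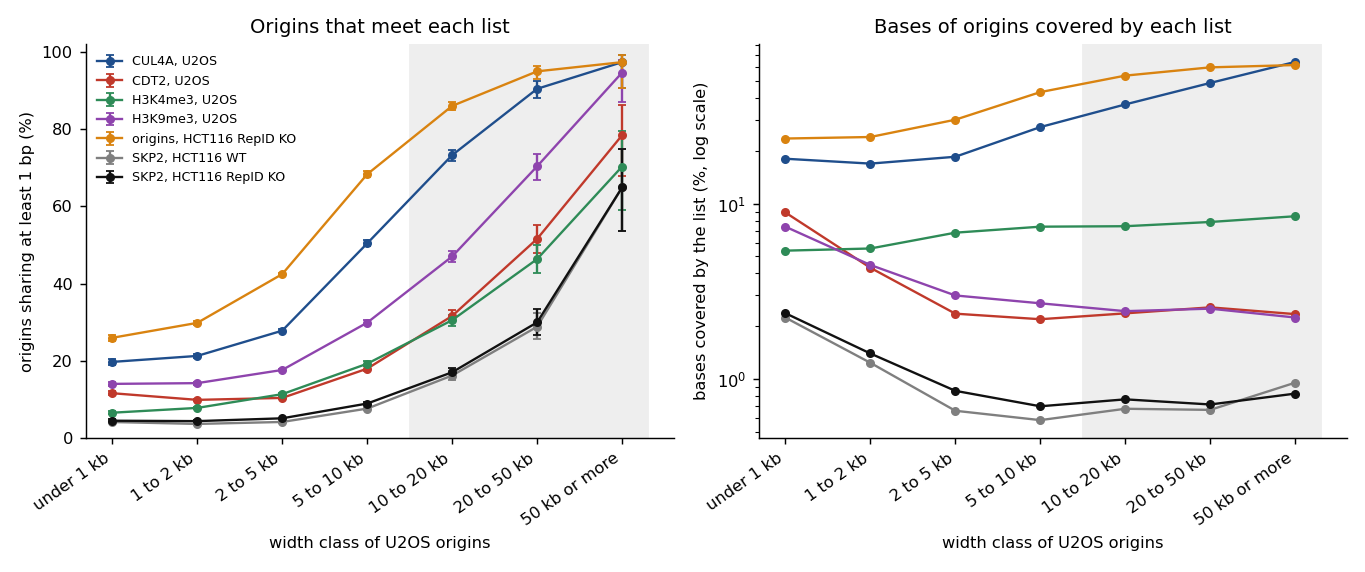
Left, percent of U2OS origins in each width class that share at least 1 bp with each of 7 lists, with Wilson 95% intervals. Right, percent of the bases of the class covered by each list (log scale). Grey shading marks the broad zones: CUL4A coverage rises to 64.2% and KO origins to 61.6% in the widest class, while CDT2 stays at 2.35% and H3K9me3 at 2.24%.

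H3K9me3 met 2464 broad zones, or 51.2% (49.8 to 52.6%), and 19.1% of all origins. H3K4me3 met 1611, or 33.5% (32.1 to 34.8%), and 11.7% of all origins. The heterochromatin mark was therefore met by more zones, but its peaks were short, with a median of 322 bp over the list against 1902 bp for H3K4me3. By bases, H3K4me3 covered 7.62% of broad zones and 6.78% of other origins, and was higher in broad zones on 15 of 22 chromosomes. H3K9me3 covered 2.45% of broad zones and 3.23% of other origins, and was higher in broad zones on 0 of 22 chromosomes. At the 1 kb centre, H3K4me3 was found in 10.8% of broad zones and 8.54% of other origins, a difference of 2.30 points (1.43 to 3.22). Origins of 5 to 10 kb had almost the value of broad zones, with 10.7% at the centre and 7.39% of bases covered. For H3K9me3 the shares were 7.0% and 10.7%, a difference of -3.72 points (-4.43 to -2.94), with 8.39% in origins of 5 to 10 kb. With width, H3K4me3 coverage went from 5.40% in origins under 1 kb to 8.47% in the widest zones, and H3K9me3 coverage went from 7.39% to 2.24%. Coverage by the 2 marks thus had opposite directions along the width of origins. H3K9me3 coverage was already at 2.70% in origins of 5 to 10 kb. Peak density was lower in broad zones than in other origins for both marks. It was 27.8 against 30.7 per Mb for H3K4me3 and 47.6 against 65.9 per Mb for H3K9me3.

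The broad zones fell into 4 groups by these marks. H3K4me3 alone was met by 752 zones (15.6%), H3K9me3 alone by 1605 (33.3%), both by 859 (17.8%) and neither by 1600 (33.2%). CDT2 was met by 21.3% of the zones with H3K4me3 alone (18.5 to 24.3%) and by 47.3% of those with H3K9me3 alone (44.9 to 49.7%), although the median widths of these groups were 13000 and 13400 bp. Zones with neither mark met CDT2 in 18.6% and zones with both in 56.0%, but their median widths differed, with 12200 and 15600 bp. The same order of the single marks held in origins of 5 to 10 kb, at 9.43% with H3K4me3 alone and 35.4% with H3K9me3 alone. CUL4A was met by 78.7% of the zones with H3K4me3 alone and 81.2% of those with H3K9me3 alone, by 61.7% with neither mark and by 91.2% with both. In origins of 5 to 10 kb it was met by 54.8% with H3K4me3 alone and 65.7% with H3K9me3 alone. Peak by peak, 48.1% of the CDT2 peaks in broad zones shared bases with H3K9me3 and 16.1% with H3K4me3. In other origins the values were 48.9% and 12.2%, and outside origins they were 34.7% and 4.47%. Of the H3K4me3 peaks in broad zones 70.1% shared bases with CUL4A, and of the H3K9me3 peaks 72.5% did, against 49.2% and 52.7% in other origins. For these shares of peaks, origins of 5 to 10 kb were not counted apart.

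Origins of the HCT116 RepID KO clone met 4212 broad zones, or 87.5% (86.5 to 88.4%), where they met 42.2% of all U2OS origins. They covered 55.7% of the bases of broad zones and 33.1% of those of other origins, a ratio of 1.68. Coverage was higher in broad zones on 21 of 22 chromosomes. The difference between classes was present below the 10 kb minimum as well. Origins of the clone covered 30.1% of the bases of origins of 2 to 5 kb and 43.2% in those of 5 to 10 kb. Of the origins of 5 to 10 kb, 68.3% met one. Coverage was at least 50% in 2762 zones (57.4%), at least 90% in 1051 (21.8%) and complete in 472 (9.80%), while 604 zones (12.5%) had no base in an origin of the clone. Among the completely covered zones the widest was chr22:19706601-19756000, which spans 49400 bp. An origin of the clone that was itself 10 kb or wider was met by 1699 broad zones, or 35.3% (33.9 to 36.6%), where 8.46% of all U2OS origins and 15.4% of those of 5 to 10 kb met one. These wide origins of the clone covered 29.9% of the bases of broad zones, 13.7% of those of origins of 5 to 10 kb and 8.72% of those of all origins under 10 kb. Of the 4614 broad origins of the clone, 1661 (36.0%) met a broad U2OS zone and 4438 (96.2%) met a U2OS origin of any width. The origins of HCT116 WT cells were not used here, so no value shows what RepID contributes.

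SKP2 peaks of HCT116 cells were fewer than those of the other lists. The WT list met 905 zones, or 18.8% (17.7 to 19.9%), and 5.01% of all origins. The KO list met 947 zones, or 19.7% (18.6 to 20.8%), and 5.87% of all origins. Both shares were counted on the same zones, so the overlap of their intervals does not compare the lists. The lists also differ in size, with 11929 WT and 13518 KO peaks on chromosomes 1 to 22. By bases, the WT peaks covered 0.696% of broad zones and 0.761% of other origins, and the KO peaks 0.759% and 0.926%. At the 1 kb centre, the difference between broad zones and other origins was -0.791 points for WT (-1.15 to -0.355) and -1.01 points for KO (-1.40 to -0.534). Origins of 5 to 10 kb were close to broad zones, with SKP2 at the centre in 1.83% (WT) and 2.42% (KO) against 1.91% and 2.28%, and with 0.584% and 0.701% of bases covered. Of the SKP2 peaks in broad zones, 22.2% of WT and 18.7% of KO peaks shared bases with a CDT2 peak of U2OS cells. There, 14.8% of WT peaks shared bases with a KO peak. In other origins these shares were 25.2%, 21.1% and 15.4% in the same order, so none was higher in broad zones. Outside origins they were 17.4%, 12.2% and 11.8%. SKP2 density, counted by peak centres, was 13.5 (WT) and 14.1 (KO) peaks per Mb in broad zones, against 15.9 and 18.9 in other origins. Counted as peaks sharing at least 1 bp, it was 13.6 and 14.2 per Mb in broad zones and 11.8 and 14.1 in origins of 5 to 10 kb. The lower density thus held against all other origins pooled and not against those of 5 to 10 kb.

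Along the zones, coverage by CUL4A, KO origins and H3K4me3 formed a plateau with lower edges. CUL4A covered 34.8% of the first 10% of zone length, 44.3% of the middle and 35.5% of the last 10%. KO origins covered 48.0%, 58.7% and 47.3%, and H3K4me3 6.50%, 8.04% and 6.40%. CDT2 and H3K9me3 were level, with 2.46%, 2.44% and 2.32% for CDT2 and 2.40%, 2.41% and 2.38% for H3K9me3. Immediately outside, all 7 lists were lower, CUL4A with 21.1% and 21.7% on the left and right and H3K9me3 with 0.911% and 0.936%. Farther out coverage returned to 28.9% for CUL4A and 1.96% for H3K9me3. The flanks are no origin-free background, because 51.1% of their bases lay in some U2OS origin and 23.4% in another broad zone, whereas the stretch next to a zone must lack origin windows by the way regions are joined. Over flanks as long as the zones, coverage was 27.5% for CUL4A, 38.9% for KO origins, 5.26% for H3K4me3, 1.89% for CDT2 and 1.85% for H3K9me3, all below the value inside.

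**Figure D5:**
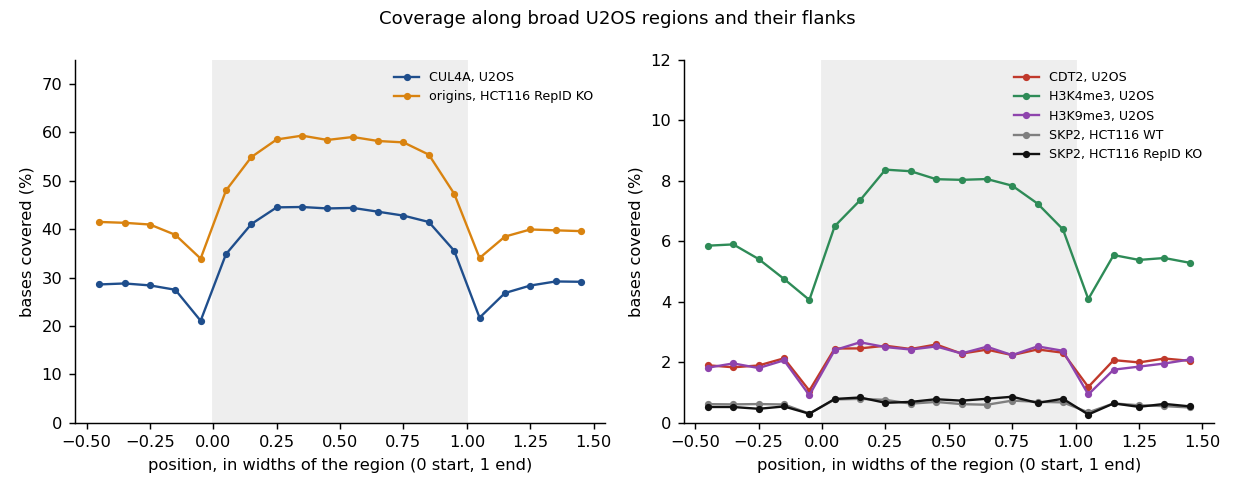
Percent of bases covered (vertical axes) in steps of 10% of the length of the 4816 broad zones (grey, 0 to 1 on the horizontal axis) and their flanks, in units of zone width. In the middle of the zones CUL4A and KO origins (left) are at 44.3% and 58.7% and H3K4me3 (right) at 8.04%, above the values at the edges, while CDT2 and H3K9me3 stay level inside and dip beside the edges.

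Zones differed in the number of lists they met. The most frequent numbers were 3 (1223 zones) and 4 (1047 zones) of the 7 lists, while 205 zones (4.26%) met none and 62 (1.29%) met all 7. Zones that met all 7 had a median width of 22300 bp, against 12000 bp for those that met none, so this count moved with length. Among the U2OS lists alone, CUL4A without the others was the most frequent combination (751 zones, 15.6%), followed by CUL4A with CDT2 and H3K9me3 (690 zones, 14.3%). CUL4A with H3K9me3 was found in 614 zones and CUL4A with H3K4me3 in 441. All 4 were found in 460 zones and none in 551. These numbers of lists and combinations were not counted in narrower origins, so none can be called particular to broad zones. An origin of the KO clone was met by 93.9% of the zones with CUL4A alone and by 57.5% of those with none of the U2OS lists. Zones with CUL4A had a KO origin in 91.9% or more in each combination, and zones with H3K9me3 and none of CUL4A, CDT2 and H3K4me3 had one in 57.8%. Zones without CUL4A that met H3K4me3 also had one frequently, in 86.1% with H3K4me3 as the only U2OS list and 81.8% with H3K4me3 and H3K9me3.

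Coverage also moved with the score per kb of the zones. In the 1204 zones with the lowest score per kb, with a median of 36.7, CUL4A covered 23.7% of bases, and in the 1204 with the highest, with a median of 64.9, it covered 58.0%. Coverage by CDT2 went from 1.33% to 3.34%, by H3K4me3 from 6.17% to 9.25%, by H3K9me3 from 1.96% to 2.79% and by KO origins from 41.8% to 64.7%. SKP2 of the WT list went from 0.383% to 1.04%, so every list covered more of the high-scoring zones. The median width of these zones was 11800 bp at the lowest and 15800 bp at the highest scores. The part of the score in these coverages was not tested.

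The widest zones differed in which lists they met and in how much of each zone those lists covered. The widest, chr7:6490601-6708000, spans 217400 bp and held 15 CUL4A regions that covered 49.0% of it, 11 H3K4me3 peaks and 22 KO origins that covered 34.5%. It held 1 CDT2 peak. The next, chr7:1011801-1175200 with 163400 bp, was covered to 90.9% by 12 CUL4A regions and held 5 CDT2, 4 H3K4me3 and 8 H3K9me3 peaks. In chr7:2067001-2216000, which spans 149000 bp, CUL4A covered 94.5%, with 9 CDT2 and 11 H3K9me3 peaks and 0 of H3K4me3. In this zone nearly complete CUL4A coverage went with H3K9me3 peaks and no H3K4me3 peak, but the H3K9me3 peaks covered only 4.57% of its bases. Of the 10 widest zones, 5 lay on chromosome 8, and 3 of these had 0 CDT2 peaks. The zone chr8:144549001-144679800 (130800 bp) had none, with H3K4me3 over 14.7% and CUL4A over 81.0% of its bases, and chr8:145571601-145697800 (126200 bp) had H3K4me3 over 33.2% and 2 CDT2 peaks. The zone chr8:144868001-144971400 (103400 bp) also had none, with 14 CUL4A regions. A different kind was chr8:86726401-86843600 (117200 bp), also without CDT2, whose score per kb of 311 was far above the median of 46.7 and in which CUL4A covered 36.3%. The widest zones that met all 7 lists were chr7:2395001-2525200 (130200 bp), chr7:1547601-1655200 (107600 bp) and chr8:142360001-142465600 (105600 bp), with CUL4A over 60.1%, 89.2% and 90.9%.

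Other zones stood at the extremes of a single list. H3K4me3 covered 99.2% of chr20:47893401-47904200, a zone of 10800 bp in which CUL4A covered 16.7% and KO origins 18.5%. CDT2 covered 46.6% of chr20:29514801-29525800, with 3 peaks in 11000 bp. This zone lies 93400 bp from the longest stretch of its chromosome that holds no region of any list. H3K9me3 reached at most 24.2%, in chr2:26669201-26679600, where 2 CDT2 peaks covered 18.2%. The SKP2 lists had their maxima in chr19:42731401-42742600 for WT (30.8%, 0 KO peaks) and chr7:100634401-100648600 for KO (32.0%, 5 peaks beside 3 WT peaks). Both of these had no CDT2 peak and no histone peak, and CUL4A over 80.4% and 100% of their bases.

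Position along the chromosome went with these differences. Within 2 Mb of a chromosome end, 335 of the origins were broad, a share of 6.16% (5.55 to 6.83%). The longest region-free stretch lying between regions was also located on each chromosome. In the 2 Mb on either side of it 220 origins were broad, a share of 6.33% (5.57 to 7.19%). These stretches ran from 224200 bp on chromosome 22 to 21049800 bp on chromosome 1. Region-free starts of chromosomes were not counted among them. Elsewhere the share was 3.64% (3.53 to 3.75%). Near the ends CUL4A covered 64.8% and KO origins 79.8% of the bases of broad zones, against 39.9% and 54.1% elsewhere, and 0 of the 335 zones met none of the lists, which allows a share of up to 0.896%. Of these 335 zones, 44 lay on chromosome 7 and 40 on chromosome 8, and 17 were 50 kb or wider, against 53 of the 4261 zones elsewhere. The part of width and of these chromosomes in the coverage was not tested, and coverage of narrower origins near the ends was not measured. Near the region-free stretches between regions CUL4A covered 32.9% and KO origins 41.9%. There, 14.1% of the zones met none of the lists, against 4.08% elsewhere. The 3 widest zones that met none of the lists were all in such places: chr11:51223001-51271800 (48800 bp) lay 319471 bp from the stretch, chr7:62209601-62247000 (37400 bp) 1154696 bp and chr7:62370001-62403200 (33200 bp) 1315096 bp. Their scores per kb were 47.3, 67.5 and 58.5, at or above the median of broad zones, and neither CUL4A nor an origin of the KO clone was called there.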

How the data were processed

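Nascent strands were sequenced after lambda exonuclease digestion, and ChIP-Seq was made for CUL4A, CDT2, H3K4me3, H3K9me3 and SKP2. Of 11 samples, 8 had a list of regions and 3 inputs had none. The authors aligned the reads and called the regions before depositing them. The labels' processing notes name hg19, SICER and MACS. The origins were called at a false discovery rate of 0.01 and CUL4A at 1e-05. The deposited origin, CUL4A, CDT2 and SKP2 lists carry a score whose scale is not stated. The deposited histone lists give the fold enrichment as a ratio and significance as −log10 p and −log10 q. The lists used here give no read totals, so the depth behind each sample is unknown, and intervals and upper limits for 0 counts (3 counts) cover counting error only.

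From these lists, zones of 10000 bp or more were selected and overlaps of at least 1 bp, bases covered, the 1 kb at the centre and flanks of equal length were counted. Differences of shares have Newcombe intervals. Condition tests were not run, with 1 sample per condition. The overlap counts were tested on simulated lists, where 0 of 5000 answers differed from a base-by-base count.

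The zones, lists and alternatives were chosen with earlier results of these data known. Zones named are the 10 widest, the 2 highest-scoring on and the 2 just under the minimum width, for each other list the most covered zone (ties by width), and the 3 widest meeting none and all of the lists. The genes and sequence under the zones were not analysed here, since no genome of this build was used. Positions are counted from 1. Python 3.11.15, NumPy 2.4.6, SciPy 1.17.1 and matplotlib 3.10.9 were used.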

Additional observations from a re-analysis of the deposited data

How the results depend on the processing

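The 7 shares of broad zones meeting a list were recomputed under 58 alternatives, of which 25 lay within the main interval and 33 did not. Requiring the centre of the other region inside the zone gave 73.9% for CUL4A, 31.5% for H3K4me3 and 81.7% for KO origins. The stronger 50% of each list gave 67.9% for CUL4A, 21.8% for CDT2, 21.9% for H3K4me3, 34.5% for H3K9me3, 77.2% for KO origins, 12.1% for SKP2 WT and 13.7% for SKP2 KO. A 1 kb window at the centre gave 47.5%, 5.71%, 10.8%, 7.0%, 64.9%, 1.91% and 2.28% in the same order. A minimum of 20 kb gave 91.0%, 54.1%, 48.6%, 72.6%, 95.1%, 32.2% and 33.2% over 782 zones. Joining origins under 2 kb apart gave 9503 zones, of which 39.4% met CDT2, 36.8% H3K4me3, 56.1% H3K9me3, 85.6% KO origins, 21.3% SKP2 WT and 22.5% SKP2 KO. A −log10 q of at least 2 gave 40.7% for H3K9me3. Leaving out chromosomes 7 and 8, chosen after seeing the data, gave 77.8% for CUL4A and 89.3% for KO origins. The number of zones therefore depends on how neighbouring origins are joined. KO origins came first and CUL4A next in every setting, but the order of the histone marks did not hold, since H3K4me3 was above H3K9me3 in the 1 kb window, and it was above CDT2 there and in the stronger 50%. The cause was not tested beyond the smaller windows, fewer regions and longer zones that these settings make. No paired analysis was possible because each condition has 1 sample, and no replicate could be left out. Unknown depth limits what a missing peak can show.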

Other observations

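Outside the 22 autosomes, chromosome X held 1234 U2OS origins, of which 8 were 10 kb or wider, and the widest spanned 29000 bp. The highest score per kb among the broad zones was 414, in chr5:17515601-17530600, a zone of 15000 bp that was covered to 86.7% by CUL4A and to 82.7% by KO origins and met no histone peak. It was chosen after its values were seen. Only 24 broad zones lay above the 99th percentile of score per kb of all autosomal origins, which was 140.0.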
